A study of Mus musculus with 8 samples.

Results

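The comparison described here set the first 4 columns of a deposited expression table against its last 4 columns, over 8 RNA libraries from mouse palatal shelves at embryonic day 13.5. In the order of the table, the first 4 libraries were null 1, wild type 1, null 2 and wild type 2, and the last 4 were null 3, heterozygote 1, null 4 and heterozygote 2. The split was not a condition of the study. It was proposed after the expression values had been seen, so every difference between the sides is given as a description, with no test. Tests were run only on the difference between null and control, and those that include the side use a term chosen on these values. Of the 19083 genes in the table, 17986 lay on the 19 autosomes in GENCODE release M21. A gene was examined if its FPKM, the number of fragments scaled to gene length and library size, was at least 1 in 2 or more columns. This kept 12907 autosomal genes and left 5079 below the filter.

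The study compared embryos lacking Pax9 with wild-type and heterozygous controls, and the labels give the genotypes as Pax9-/-, wild type and Pax9+/-. All 8 embryos carried the strain label C57BL/6, all were labelled palate shelf, and none was treated. The labels say that control and mutant palates were lysed one by one, and they do not name the null allele, the litters, the dates or the sequencing runs. Each sample title holds the number 44 or 56, whose meaning is not stated. Each side held 2 null and 2 control libraries and 2 libraries of each title number, so neither the null genotype nor the title number separated the sides. Among controls, however, the first side held the wild types and the last side the heterozygotes, so that genotype and side cannot be told apart there. Only the null libraries compare the sides within 1 genotype.

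The palatal shelves are outgrowths of the upper jaw, made of neural crest mesenchyme covered by epithelium, that rise above the tongue and fuse to close the roof of the mouth. Pax9 is a paired-box transcription factor that the mesenchyme needs for this growth. Muscle precursors, nerve fibres and blood vessels enter the shelf from the surrounding tissue, so their share in a dissected piece can vary with where the cut is made. Base composition is a separate matter: amplification and sequencing recover fragments rich or poor in G and C with unequal efficiency, and libraries can differ in that efficiency.

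Depth ran from 37123087 to 51284743 reads per library, as recovered from the whole steps of the FPKM values. Pax9 was low in every null library, at 8.49 and 7.19 FPKM on the first side and 9.81 and 10.3 on the last, and high in every control, at 35.8 and 27.2 in wild type 1 and 2 and at 30.1 and 26.2 in heterozygote 1 and 2. These levels followed the genotype labels on both sides. The 24 palatal mesenchyme transcription factors on the marker list were all measured, with a summed level between 1096 and 1318 FPKM over the 8 libraries. Xist, the RNA that coats the inactive X chromosome in females, was at 179 FPKM in null 4 and 110 FPKM in heterozygote 2, and no higher than 0.0327 FPKM in the other libraries. Both Xist-positive libraries were on the last side, which is why sex-linked genes were left out, and values without these libraries are given where they bear on a result.

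The sides differed over much of the transcriptome. In 2279 genes (17.7% of those tested) all 4 first libraries were above all 4 last libraries, and in 2120 genes (16.4%) all 4 were below. In either direction this came to 4399 genes, or 34.1%. For reference, limma called 5295 genes (41%) at an adjusted p under 0.05 in the same contrast, 2841 (22%) higher and 2454 (19%) lower in the first 4. Since the split was chosen on these values, the counts describe its size and nothing is read from them. The differences were small per gene: their standard deviation over genes was 0.216 on the log2 scale, and only 47 genes differed by more than 1 on that scale, 38 higher in the first 4 and 9 higher in the last 4.

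The exon GC content of a gene ordered these differences. Genes higher in the first 4 without overlap had a median GC content of 56.03%, genes higher in the last 4 had 42.6%, and all tested genes had 49.7%. A set of 4 genes shows the contrast in base composition. They are the protein-coding genes with the lowest and highest GC content among those above a mean of 20 FPKM whose sides did not overlap, a choice of coding genes made after the values were seen. The first 90 coding bases of each are printed from GENCODE M21 transcripts, with G and C in capitals.
Arhgap5: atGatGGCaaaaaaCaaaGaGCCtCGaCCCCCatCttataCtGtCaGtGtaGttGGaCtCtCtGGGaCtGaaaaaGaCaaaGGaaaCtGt
Ube3a: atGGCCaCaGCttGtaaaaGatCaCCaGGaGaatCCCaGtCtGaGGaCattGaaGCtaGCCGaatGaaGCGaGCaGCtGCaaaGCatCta
Gm1673: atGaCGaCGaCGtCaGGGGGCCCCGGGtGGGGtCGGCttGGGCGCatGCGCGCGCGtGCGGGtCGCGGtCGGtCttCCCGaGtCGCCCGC
Scand1: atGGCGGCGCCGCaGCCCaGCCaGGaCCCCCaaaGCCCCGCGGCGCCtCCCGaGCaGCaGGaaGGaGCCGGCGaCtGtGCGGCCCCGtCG

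Arhgap5, a GTPase-activating protein gene (chr12:52503972-52571975, plus strand, GRCm38), has 39 G or C bases in its stretch of 90, and its exons are 34.2% GC. Its FPKM was 21.1, 25.1, 24.1 and 22.6 in the first 4 libraries and 30.04, 29.9, 29.9 and 31.2 in the last 4. The last 4 were all higher, by 0.38 on the log2 scale (standard error 0.05). Ube3a, the ubiquitin ligase gene of Angelman syndrome (chr7:59228750-59311536, plus strand), has 44 such bases and exons of 34.6% GC. It was at 18.8, 18.997, 19.97 and 16.7 FPKM in the first 4 and 24.7, 23.2, 23.5 and 21.8 in the last 4, again without overlap.

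At the other end, Gm1673 (chr5:33983433-33985013, plus strand) has 69 G or C bases in its stretch and exons of 68.5% GC. Its FPKM was 28.7, 29.9, 26.4 and 28.6 in the first 4 and 22.1, 25.6, 21.3 and 19.6 in the last 4. Scand1, which encodes a small SCAN-domain protein (chr2:156311847-156312704, minus strand), has 70 such bases and exons of 68.4% GC. It was at 52.3, 56.04, 46.2 and 55.6 FPKM in the first 4 and 39.2, 43.5, 32.1 and 33.1 in the last 4. The separation of the sides in these 4 genes is part of how they were chosen. Once the trends described next were removed, the difference was −0.05 for Arhgap5, 0.01 for Ube3a and 0.03 for Gm1673, and 0.18 for Scand1, and none of these genes remained free of overlap.

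The slope of each library on GC content measured the trend. It was fitted over the tested genes, jointly with gene length, to the deviation of each gene from the mean of its class (null or control). Per 10 percentage points of GC, the log2 value rose by 0.156 in null 1, 0.103 in wild type 1, 0.0856 in null 2 and 0.132 in wild type 2. In the last 4 the slopes were −0.0965 in null 3, −0.0776 in heterozygote 1, −0.145 in null 4 and −0.157 in heterozygote 2. All 4 first libraries had positive slopes and all 4 last libraries negative ones. The means were 0.119 ± 0.0313 and −0.119 ± 0.0382 (SD, n = 4 each). Deviations are centred within each class, so the side means mirror each other by construction, here and for length below. Only their difference, 0.238 for GC content, is measured. The slope of the side difference was 0.242 within the null libraries and 0.235 within the controls. Weighted by expression, the mean GC content of the libraries was 49.6% ± 0.0610 on the first side and 49.0% ± 0.124 on the last (SD, n = 4 each).

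The trend was graded over the whole range of GC content. In the decile of genes with the lowest GC content (19.8% to 41.5%), the median difference was −0.24 and 59.7% of genes were higher in the last 4 without overlap, against 0.0775% higher in the first 4. In the decile with the highest GC content (57.7% to 87.6%), the median was 0.25 and 53.9% were higher in the first 4, against 0.310% higher in the last 4. In the middle, between 47.7% and 49.7% GC, the median was −0.01. The sides crossed near the median gene, so the trend shifted genes at both ends and left the median of all genes at 0.01.

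**Figure D1:**
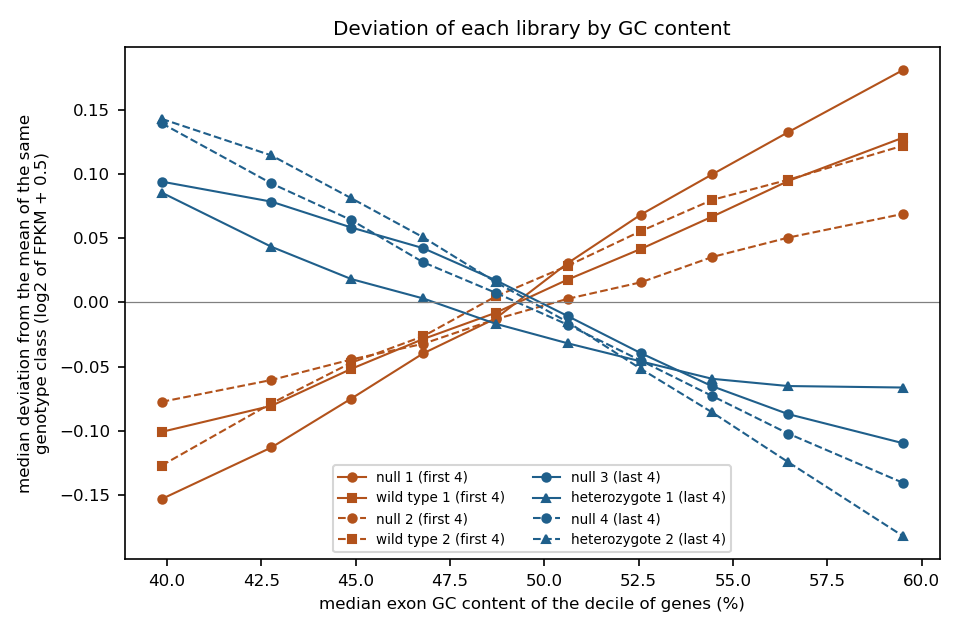
Median deviation of each library from the mean of its genotype class (null or control; log2 of FPKM plus 0.5, vertical axis) for 10 groups of genes ordered by exon GC content (horizontal axis, %); one line per library, solid for title number 56 and dashed for 44, circles for null, squares for wild type and triangles for heterozygote. The first 4 libraries rise with GC content and the last 4 fall, and the lines cross near the middle of the range.

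Gene length mattered far less. The length slopes, per doubling of length, had a mean of 0.00391 ± 0.00619 in the first 4 and −0.00391 ± 0.00571 in the last 4 (SD, n = 4 each), so the libraries of the sides overlapped. The median difference was 0.02 in the shortest decile of genes, 0.06 in the next decile, and −0.06 in the longest. Across genes, the rank correlation of the side difference was 0.779 with GC content and −0.143 with length, while GC content and length were themselves correlated at −0.225. Genes share libraries and are not independent replicates, so these values are descriptions. GC content accounted for 46.4% of the variance of the side difference over genes, length for 0.449%, and a flexible curve in both for 47.3%. Over all tested genes, the larger part of the variance was thus related to neither. The relation was closer in abundant genes. The Pearson correlation of the side difference with GC content was 0.681 over all tested genes. It was 0.805 over the 3441 genes with a mean of 20 FPKM or more.

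Removing a curve in GC content and length from each library reduced the spread of the side difference from 0.216 to 0.157 (SD over genes, log2). After removal, 625 genes (4.84%) were higher in the first 4 without overlap and 756 (5.86%) were higher in the last 4, together 1381 (10.7%). For reference only, limma called 313 (2.43%), of which 168 (1.3%) were higher and 145 (1.12%) lower in the first 4. As before removal, nothing is read from these calls. Of the 2279 genes that were higher in the first 4 before removal, 395 (17.3%) stayed free of overlap, and 418 of 2120 (19.7%) did so in the other direction. Some genes came into view only after removal. Of the genes without overlap after removal, 63.2% of those higher in the first 4 and 55.3% of those higher in the last 4 had been so before.

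The remainder still ran alike in null and control libraries. The split was proposed after the values of both classes had been seen. This agreement is therefore part of the description and gives no independent support. The side difference in the null libraries and that in the controls rest on separate libraries, and across the 12907 genes they had the same sign in 86.0% of genes before removal and in 73.8% after it. Their rank correlation over genes was 0.835 before and 0.610 after. Libraries can also be matched 1 to 1 across the sides by class and title number, which gives 4 pairs. The meaning of the title number is not stated, so this match is by name only. Its control pairs also set wild type against heterozygote. In both pairs of title number 44, the last-side library was Xist-positive and the first-side library was not. In 60.9% of genes all 4 pairs differed in 1 direction, and after removal this held for 34.6%. The leading axis of variation within class took 45.8% of the variance before removal and gave all 4 first libraries positive and all 4 last libraries negative scores. After removal it took 32.1% and had the same signs, although heterozygote 1, at −0.0527, was close to 0 and the other last libraries lay between −0.351 and −0.529. Heterozygote 1 also had the shallowest negative GC slope.

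**Figure D2:**
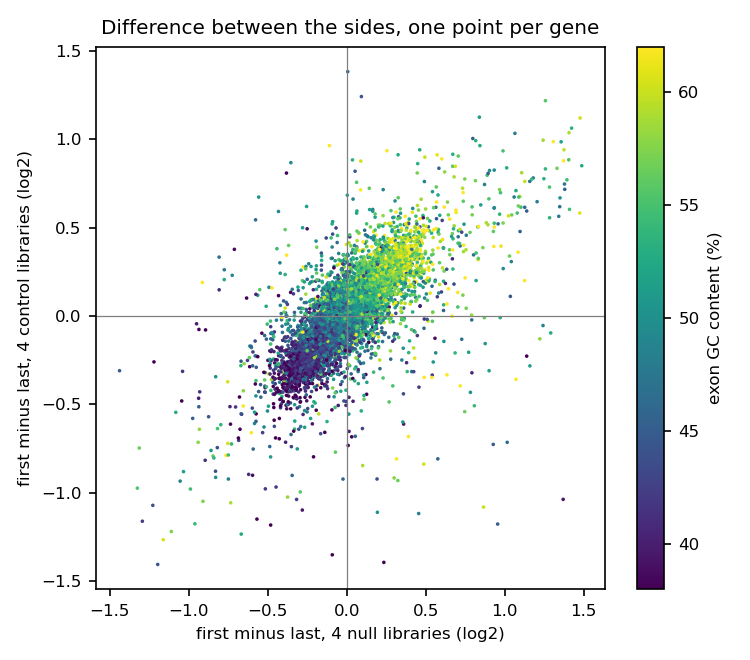
Side difference of each gene in the 4 null libraries (horizontal axis, log2) against that in the 4 control libraries (vertical axis, log2); one point per tested gene, coloured by exon GC content, with 23 genes beyond 1.5 in either direction not drawn. GC-poor genes fill the lower left and GC-rich genes the upper right, and a sparse tail at the upper right, away from the cloud, reaches beyond 1 on both axes.

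Skeletal muscle genes made the clearest exception to the base composition trend. The list held transcription factors of the muscle lineage and contractile proteins, and 23 of its 25 genes were tested. All 23 had a positive side difference, from 0.50 to 1.70, with a median of 1.17 against 0.01 for all tested genes, and the median was 1.10 after removal of the trends. The median GC content of the list, 53.0%, lay above that of all genes, but removal moved its median by little. None of the 23 was free of overlap, however, and the reason is visible in the libraries. The summed level was 512, 167, 535 and 353 FPKM in the first 4 libraries and 222, 112, 127 and 115 FPKM in the last 4. Wild type 1 was below null 3, so the sides overlapped.

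Matched by class and title number, which is a match by name only, muscle RNA was higher on the first side in all 4 pairs. Within each class, this order did not depend on the match. Null 1 and null 2, at 512 and 535 FPKM, were above null 3 and null 4, at 222 and 127. Wild type 1 and 2, at 167 and 353 FPKM, were above heterozygote 1 and 2, at 112 and 115. The ratio of the summed levels was 2.31 between null 1 and null 3, 1.495 between wild type 1 and heterozygote 1, 4.21 between null 2 and null 4, and 3.06 between wild type 2 and heterozygote 2. Null 4 and heterozygote 2, the last-side libraries of the title number 44 pairs, were the Xist-positive ones. Null libraries also held more muscle RNA than the control of the same side and title number, in all 4 cases. In a bulk sample, fewer muscle cells and less RNA per muscle cell cannot be told apart.

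The difference had 1 sign in progenitor, determination and contractile genes, although in none of them were the sides free of overlap. Myod1, a determination factor, was at 20.3, 8.01, 20.1 and 12.9 FPKM in the first 4 libraries and 8.96, 4.86, 5.95 and 4.57 in the last 4. Myog, which drives differentiation, was at 45.7, 15.6, 46.5 and 32.7 FPKM, then 19.1, 10.4, 12.9 and 9.94. Pax7, a factor of muscle progenitors, was lower throughout, at 1.99, 0.813, 2.00 and 1.56 FPKM, then 0.994, 0.567, 0.694 and 0.514. In each of these genes null 1, null 2 and wild type 2 were the 3 highest libraries. The list's largest difference was in Acta1, skeletal muscle actin, at 36.2, 10.6, 40.5 and 23.8 FPKM in the first 4 and 14.1, 5.91, 5.90 and 5.64 in the last 4. Its difference of 1.70 (standard error 0.31) became 1.505 after removal. The most abundant member, the cardiac actin gene Actc1, which fetal skeletal muscle also uses, differed by 1.34 (standard error 0.27), and by 1.26 after removal.

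Nerve genes went the other way on average, but not by side. The neuron list had 15 tested genes, with a median of −0.71 before and −0.83 after removal. Its summed level was 76.1, 79.0, 71.5 and 142 FPKM in the first 4 and 206, 93.9, 64.7 and 214 FPKM in the last 4. Null 3 and heterozygote 2 were high, wild type 2 was intermediate, and the other 5 libraries lay between 64.7 and 93.9 FPKM on both sides. Null 4 was below null 2, so 1 of the 4 matched pairs ran opposite to the list's median. Stmn2, a microtubule regulator of growing axons, showed the same pattern at 2.09, 1.22, 3.25 and 8.89 FPKM, then 16.7, 3.49, 2.88 and 19.8. Its side difference of −1.23 had a standard error of 0.72. Isl1, a LIM-homeobox factor of motor and sensory neurons, was the only list member free of overlap, at 3.90, 3.24, 3.35 and 3.71 FPKM in the first 4 and 7.00, 4.27, 4.22 and 7.74 in the last 4. After removal it overlapped.

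**Figure D3:**
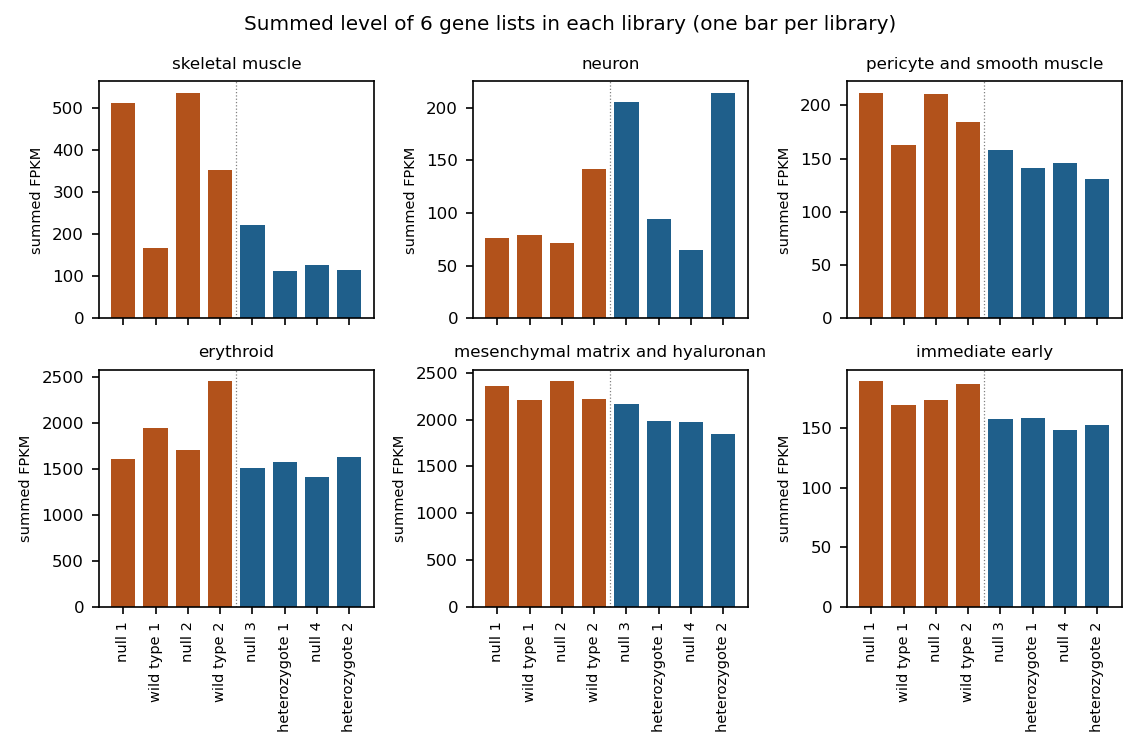
Summed FPKM (vertical axes) of 6 gene lists in each of the 8 libraries, in column order, with the first 4 in brown and the last 4 in blue; each bar is 1 library. Muscle is high in null 1, null 2 and wild type 2, neuron is high in null 3 and heterozygote 2, and the smooth muscle, matrix and immediate early sums are higher in every first library than in any last library.

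Among blood genes, the side difference varied between globins. The summed level of the 10 tested erythroid genes was 1611, 1950, 1703 and 2454 FPKM in the first 4 and 1516, 1580, 1416 and 1631 in the last 4, which overlapped. The list's median was 0.23 before and 0.17 after removal. Its largest differences were in globins made by definitive red cells. Hba-a1, an adult alpha globin, was at 108, 131, 109 and 163 FPKM in the first 4 and 73.4, 88.1, 60.1 and 69.1 in the last 4, a difference of 0.81 (standard error 0.10) and of 0.64 after removal. Hbb-bs, an adult beta globin, differed by 0.98 (standard error 0.20). Among embryonic globins, Hbb-bh1 differed by −0.02 and Hba-x by 0.20. Hbb-y, the most abundant gene of the list, was at 1151, 1402, 1206 and 1719 FPKM in the first 4 and 1147, 1145, 1031 and 1189 in the last 4. It differed by 0.26, and by 0.28 after removal, when it became free of overlap.

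As a share of the summed FPKM of 7 globin genes, a grouping made after the values were seen, the 4 adult-type genes took 15.5%, 16.2%, 14.3% and 15.6% in the first 4 and 11.1%, 14.3%, 9.79% and 9.55% in the last 4. The sides touched, since heterozygote 1 lay beside null 2, and the other 3 last libraries were lower. Hba-a1 and Hba-a2 are near-identical copies, so reads may have been divided or lost between them.

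Extracellular matrix genes were higher in the first 4 by a smaller amount that removal of the trends changed little. Of the 28 tested genes, 8 were higher in the first 4 without overlap and 0 higher in the last 4, against 17.7% and 16.4% of all tested genes, with a median of 0.19. After removal the numbers were 6 and 0, against 4.84% and 5.86% of all genes, the median was 0.16, and 27 of 28 were above 0, against 6160 of 12907 of all tested genes. The summed level was 2363, 2215, 2410 and 2225 FPKM in the first 4 and 2165, 1982, 1970 and 1847 in the last 4, without overlap. Eln, which encodes elastin, the core of elastic fibres, led the list. It was at 32.6, 24.7, 35.7 and 31.1 FPKM in the first 4 and 19.6, 16.4, 14.6 and 12.4 in the last 4. Its side difference was 0.96 (standard error 0.12), and 0.80 after removal.

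Collagens moved in opposite ways with the correction. Col1a1, a main fibrillar collagen chain with exons of 57.7% GC, fell from a difference of 0.47 to 0.26 and then overlapped, having been at 175, 193, 173 and 147 FPKM against 135, 139, 113 and 111. Col3a1, a fibrillar chain with exons of 44.5% GC, rose from 0.23 to 0.34 and lost its overlap. Its FPKM was 311, 296, 318 and 259 in the first 4 and 280, 254, 247 and 228 in the last 4. Muscle RNA was also higher on the first side, and its part in the matrix values was not tested.

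Of the 8 genes on the pericyte and smooth muscle list, 4 were higher in the first 4 without overlap (17.7% of all genes) and 0 after removal (4.84% of all genes, which is near 0 in so short a list). The list's median was 0.24 before and 0.06 after. Acta2, smooth muscle actin, kept its difference, at 0.98 (standard error 0.16) before and 0.99 after. It was at 79.3, 36.8, 78.9 and 57.9 FPKM in the first 4 and 40.7, 28.8, 29.4 and 24.7 in the last 4, so wild type 1 lay below null 3, as for the skeletal muscle sum. Developing skeletal muscle also makes Acta2. The 14 endothelial genes had medians of 0.04 and −0.04, and the 14 macrophage genes 0.09 at both steps. The epithelial list of 23 genes had 3 members free of overlap before removal (34.1% of all genes) and 0 after (10.7% of all genes). Its basal keratin Krt5 was at 31.5, 47.6, 25.6 and 31.0 FPKM in the first 4 and 17.9, 26.9, 14.2 and 18.7 in the last 4, and only null 2 fell below heterozygote 1.

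The splicing genes had a smaller median difference once base composition was taken out. The 23 genes for splicing factors and the CLK kinases that phosphorylate them had a median GC content of 41.5% and a median difference of −0.20, with 9 higher in the last 4 without overlap, against 16.4% of all tested genes, and 0 higher in the first 4. After removal the median was −0.05 and 0 of the 23 were free of overlap, against 5.86% of all genes in that direction. Srsf10, a splicing regulator with exons of 37.8% GC, was at 18.4, 18.7, 17.5 and 14.6 FPKM, then 22.8, 23.5, 23.0 and 20.6. Its difference went from −0.37 to −0.11. Of 313 zinc finger genes named Zfp, 112 were higher in the last 4 and 38 in the first 4 before removal, where all genes gave 16.4% and 17.7%. After it 37 and 5 were, where all genes gave 5.86% and 4.84%, so the list stayed above all genes toward the last 4 at both steps. Its median went from −0.12 to −0.04.

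The 21 genes of G2 phase and mitosis kept most of their small median difference, at −0.10 before and −0.08 after removal, with 17 and then 19 of the 21 below 0. Of these, 5 were higher in the last 4 without overlap before removal (16.4% of all genes) and 0 after (5.86%). The difference lay mostly in the null libraries. Their median was −0.17 before and −0.12 after removal, against −0.04 and −0.01 in the controls. Without the Xist-positive libraries, the median before removal was −0.05. Hmga2, a chromatin protein of embryonic cells with exons of 41.7% GC, differed by −0.24 before and −0.05 after removal. The 14 immediate early genes, which respond quickly to handling and other stimuli, had a median of 0.19 before and 0.03 after. Jund, an AP-1 subunit with exons of 67.1% GC, differed by 0.49, which became 0.15 but stayed free of overlap. Over the 33 lists with 3 or more tested genes, the median of 26 moved toward 0 on removal, and 15 had no gene left without overlap.

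**Figure D4:**
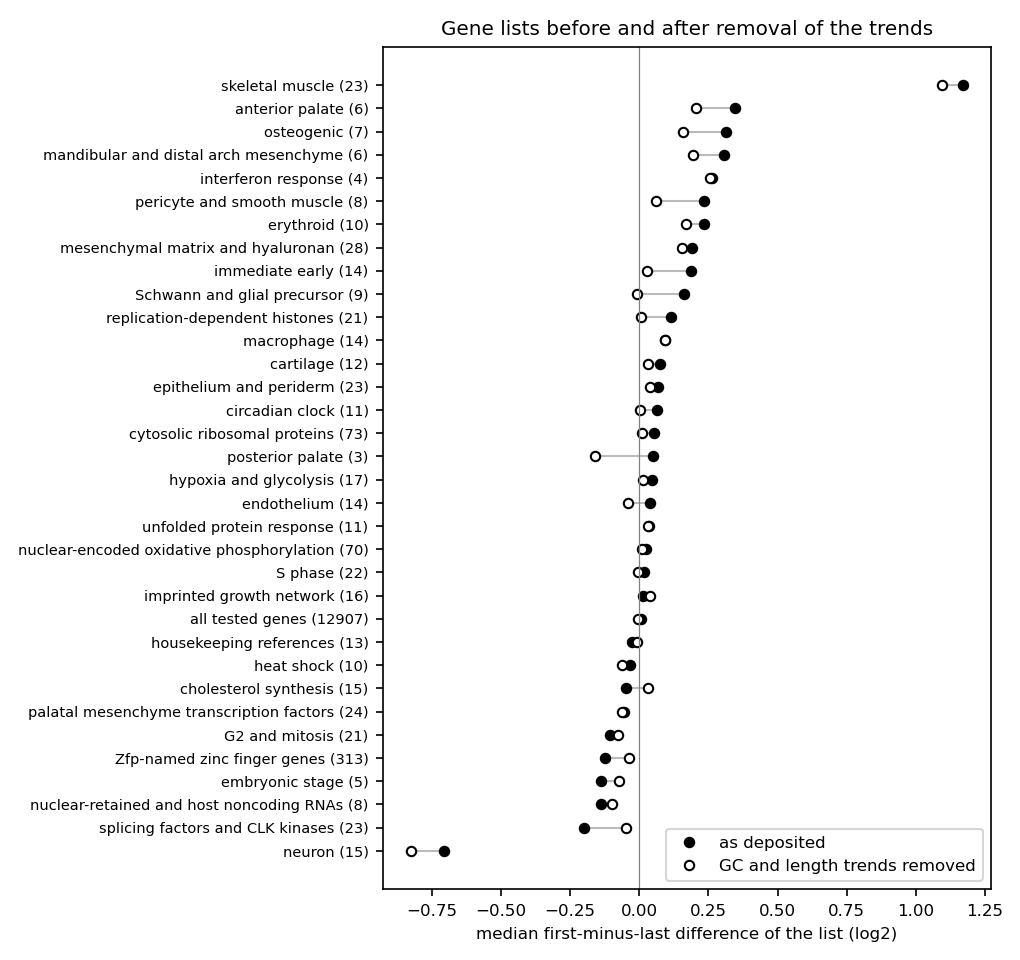
Median side difference (horizontal axis, log2, first minus last) of each gene list with 3 or more tested genes, as deposited (filled) and after removal of the GC and length trends (open); the number of tested genes is in brackets. Most open points lie nearer 0 than their filled partners, while skeletal muscle and neuron stay apart at 1.10 and −0.83.

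The 24 transcription factors of the palatal mesenchyme had medians of −0.05 before and −0.06 after removal, with 1 and 3 members higher in the last 4 without overlap, against 16.4% and 5.86% of all genes. Twist1, a basic helix-loop-helix factor of mesenchyme, was 1 of these 3. It was at 130, 140, 127 and 101 FPKM in the first 4 and 149, 145, 145 and 134 in the last 4, which overlapped, and its difference went from −0.21 to −0.45 on removal. The anterior palate list had a median of 0.35 over 6 genes, and 0.21 after removal. Its most abundant gene, Msx1, followed genotype, with 45.0 and 31.8 FPKM in the first null libraries and 29.2 and 27.9 in the last, against 102, 74.96, 74.2 and 61.1 in the controls. The 3 tested posterior palate genes went from 0.05 to −0.16.

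Single genes outside the trends stood out on both sides. Among genes with a mean of 2 FPKM or more and no overlap, the largest difference toward the first 4 was in Gm24245, a gene of 57 bases annotated as a miRNA, which rested on 0 to 20 reads per library. The next were Pitx3 at 1.13, Vgll2 at 1.03, Eln, and Fgfr4 at 0.96. Pitx3, a homeobox factor of lens and muscle, was at 4.55, 1.73, 3.70 and 3.03 FPKM in the first 4 and 1.48, 1.08, 1.09 and 0.973 in the last 4. Vgll2, a transcription cofactor of muscle, and Fgfr4, an FGF receptor of myoblasts, likewise had wild type 1 as the lowest of the first 4, and all 3 genes overlapped after removal.

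Other genes of the first side kept their separation after removal. Cdkn1a, the cell cycle inhibitor p21, was at 12.3, 6.89, 11.2 and 9.45 FPKM in the first 4 and 6.34, 4.99, 4.46 and 4.51 in the last 4, a difference of 0.89 (standard error 0.13) and of 0.80 after removal. Meox1, a homeobox factor of somites, was at 2.53, 1.82, 2.67 and 5.02 FPKM, then 1.05, 1.39, 1.43 and 1.28. Wild type 2 was the highest there, so its order of libraries was not that of muscle. Fbl, the nucleolar rRNA methyltransferase fibrillarin, was at 10.6, 10.1, 8.30 and 9.20 FPKM in the first 4 and 5.55, 5.96, 5.85 and 3.97 in the last 4. Its difference was 0.79 before and 0.69 after removal. Parm1 differed by 0.61 before and 0.63 after.

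Tpt1, which encodes the translationally controlled tumour protein, was the most regular gene of the last side. It was at 5.75, 5.82, 5.21 and 5.39 FPKM in the first 4 and 9.88, 9.69, 10.8 and 10.01 in the last 4. Both sides were tight and far apart, with a difference of −0.81 (standard error 0.05) and of −0.85 after removal. Rps25, a protein of the small ribosomal subunit, was at 7.31, 9.21, 7.80 and 7.52 FPKM, then 10.5, 11.99, 12.7 and 13.99. Its difference was −0.60 before and −0.57 after removal. U2af1, which recognises the end of introns, went from −0.42 to −0.46, and Tmsb10, an actin-binding thymosin, from −0.41 to −0.67. Usmg5, a small subunit of ATP synthase, differed by −0.69 with 27 to 73 reads per library, and Cks2, a partner of cyclin-dependent kinases, by −0.59 with 47 to 94 reads.

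**Figure D5:**
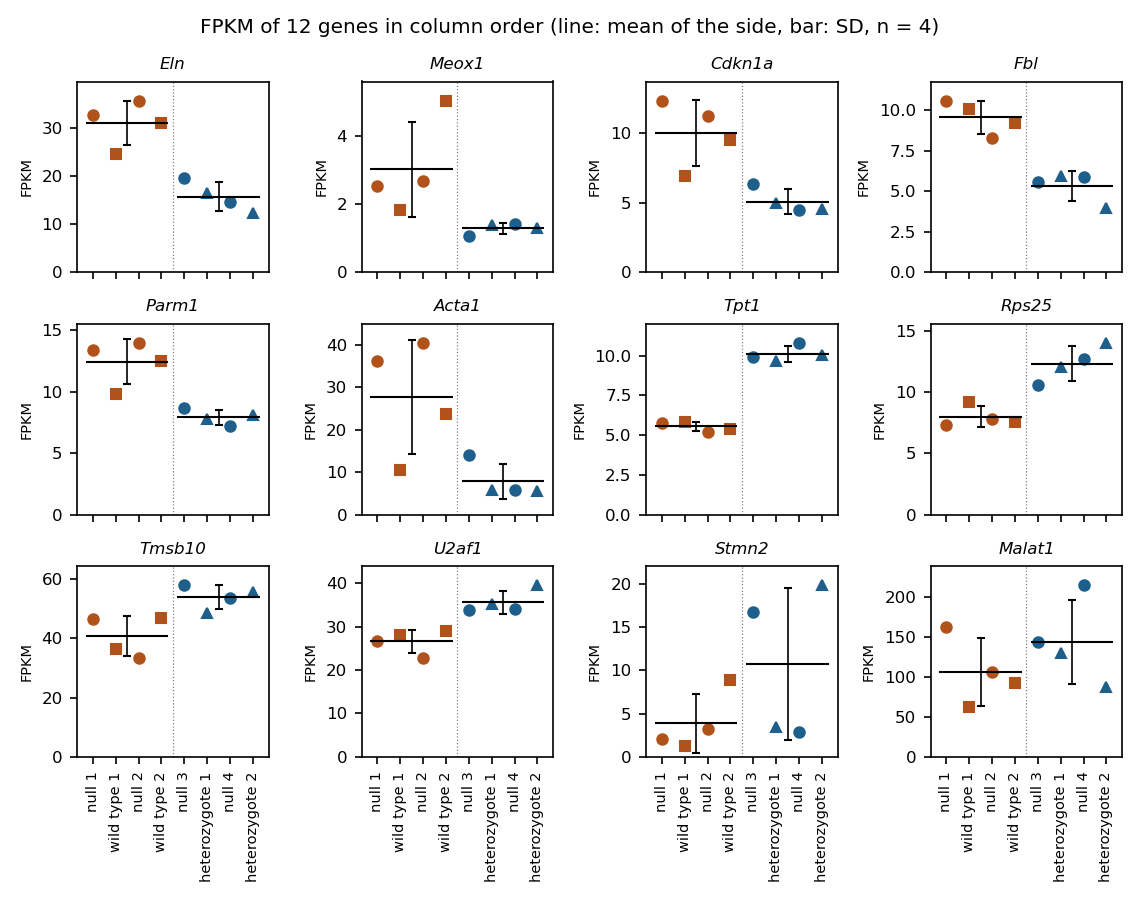
FPKM (vertical axes) of 12 genes in the 8 libraries in column order; brown for the first 4 and blue for the last 4, circles for null, squares for wild type, triangles for heterozygote, with lines at the mean of each side and bars of 1 SD (n = 4). Eln, Meox1, Cdkn1a, Fbl, Parm1, Tpt1, Rps25, Tmsb10 and U2af1 do not overlap between the sides, while Acta1, Stmn2 and Malat1 do.

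Tpt1 has 6 pseudogenes that carry its name in the annotation, so its reads and those of its copies may not be told apart by alignment, and its level is uncertain. The cytosolic ribosomal proteins, a class with many such copies, had 20 of 73 genes higher in the first 4 and 11 higher in the last 4 without overlap. This was 42.5%, against 34.1% of all tested genes and 44.9% of genes with a mean of 20 FPKM or more. After removal the counts were 16 and 12. The median of the class was 0.05 and then 0.01, so members moved in both directions. Rps10, with 4 named pseudogenes, was at 52.6, 51.5, 46.6 and 46.1 FPKM in the first 4 and 36.9, 38.8, 33.5 and 29.8 in the last 4. After removal, 28 of the 73 (38.4%) were free of overlap, against 10.7% of all tested genes and 15.9% of the 3441 genes with a mean of 20 FPKM or more.

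Genes with 3 or more named pseudogenes were set apart after these values had been seen. Of 45 such genes, 8 were higher in the first 4 and 12 in the last 4 after removal. This came to 44.4%, against 10.7% of all tested genes. Of the nuclear-encoded subunits of oxidative phosphorylation, only 3 of 70 have a named pseudogene. After removal, 11 were higher in the first 4 and 10 in the last 4 without overlap, or 30%. This share, too, was above the 10.7% of all tested genes and the 15.9% of genes with a mean of 20 FPKM or more. Pseudogenes with other kinds of names were not counted. The part of read alignment in these values was not tested.

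The list of 8 nuclear-retained and host noncoding RNAs had a median of −0.14 before and −0.10 after removal. Of these, 6 were lower in the first 4. At both steps 1 was free of overlap, against 34.1% of all genes before removal and 10.7% after. Malat1, a long noncoding RNA of nuclear speckles, was at 163, 61.9, 107 and 92.1 FPKM in the first 4 and 144, 130, 215 and 87.9 in the last 4, which overlapped. Among 368 tested genes shorter than 200 bases, 8.70% were free of overlap before removal and 6.79% after, below the shares of all genes. Snord98, a small nucleolar RNA gene, had a difference of −1.40 on 1 to 16 reads per library.

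The difference between null and control was then tested in 2 ways that involve the split. The side term in them was chosen on these expression values and lowers the residual spread by construction, so p-values from fits with it are too small to be read as independent evidence. The first asked whether the difference between null and control was itself different on the first and the last side, which among controls also sets wild type against heterozygote. In limma, 0 of 12907 genes (0%) passed an adjusted p of 0.05, the smallest adjusted p was 1.0, and 117 genes had an unadjusted p under 0.05. With voom on the recovered reads the count was also 0. A count of 0 does not show that the null effect was alike on both sides.

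The second asked what the side does to the comparison of null with control. Without the side term, 50 genes passed an adjusted p of 0.05 in limma, 24 higher (0.186%) and 26 lower (0.201%) in null. With the term, 162 passed, 65 higher (0.504%) and 97 lower (0.752%), and all 50 were among them. The additional calls describe what the term does to the fit. The change itself is the same in both fits, since each side holds 2 libraries of each class. What differed was the residual spread, whose median over genes was 0.0769 with the term and 0.120 without it (log2). The genes called with the term changed by a median of 0.40 in size, against 0.73 for those called without it. Leaving out null 1, wild type 1, null 2, wild type 2, heterozygote 1 or heterozygote 2 lowered the counts with the term to between 29 and 40 higher and 28 and 43 lower, null 3 gave 46 and 68, and null 4 gave 52 and 41.

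Pax9 fell by 1.68 on the log2 scale in null (limma adjusted p = 0.000488 without the side term, and 0.00118 with it). Further genes were picked for the largest differences among those that passed only with the term. They did not pass without it, and 7 of them are described by their values. Pax1, a paired-box gene closely related to Pax9, had levels of 0.296, 0.417, 0.312 and 0.324 FPKM in null 1 to 4 and 1.31, 1.44, 0.883 and 0.636 in the controls. Null minus control was −0.88 on the log2 scale (limma adjusted p = 0.102 without the term and 0.0301 with it).

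Rgs5, a regulator of G protein signalling found in pericytes, was at 10.8, 14.5, 15.1 and 13.2 FPKM in null and 7.28, 5.65, 8.50 and 8.23 in the controls, a difference of 0.82 (limma adjusted p = 0.0504 without and 0.0141 with the term). Wif1, a secreted inhibitor of Wnt ligands, was at 1.37, 1.60, 1.48 and 0.932 FPKM in null and 3.32, 2.95, 2.48 and 1.90 in the controls. The difference was −0.77 (limma adjusted p = 0.129 and 0.0297). In Pax1, Rgs5 and Wif1 the null and control libraries did not overlap.

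Dlx5, a homeobox factor of the branchial arches, was the other gene with higher values in null. It was at 24.2, 18.6, 17.4 and 14.5 FPKM in null and 11.99, 11.8, 10.4 and 7.36 in the controls, a difference of 0.82 (limma adjusted p = 0.138 without and 0.0178 with the term). Hs3st6, a heparan sulfate sulfotransferase, differed by −1.199 (limma adjusted p = 0.0638 and 0.0178), and the kinase gene Stk32b by −0.83 (0.113 and 0.0178). Gm25749, which differed by −1.58 (0.0638 and 0.0454), is a gene of 111 bases annotated as a miRNA, with 0 to 12 reads per library. Pax9 and these 7 genes kept the direction of their difference under each alternative that gave them a value; the filter at a mean of 5 FPKM removed Pax1, Wif1, Hs3st6, Stk32b and Gm25749, the length minimum removed Gm25749, and Pax9, Dlx5 and Rgs5 are on the lists left out in another. The call with the term was lost for Gm25749 without any 1 of null 1, null 2, null 4 and the 4 controls, for Pax1 without any library but heterozygote 2, and for Wif1 without any but null 3 and heterozygote 2. The call for Dlx5 was lost without null 1, wild type 1 or wild type 2, that for Hs3st6 without null 1, wild type 1, wild type 2 or heterozygote 1, and that for Stk32b without null 1 or null 2. Rgs5 kept its call without any 1 library. Without both Xist-positive libraries the call was lost for Gm25749, Pax1, Wif1, Stk32b and Rgs5 (limma adjusted p = 0.0708 for Rgs5), and at title number 44 alone, with 4 libraries, Pax9 itself was at 0.0503. The highest limma adjusted p-values over all alternatives were 0.124 for Gm25749, 0.240 for Pax1, 0.125 for Wif1 and Stk32b, 0.134 for Rgs5, 0.0755 for Dlx5 and 0.207 for Hs3st6.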

How the data were processed

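The deposited table gave FPKM per Ensembl gene for 8 poly(A)-selected libraries. Per the submitters' processing notes, reads were aligned with Novoalign 2.08.03 to mm10 and DESeq2 was used. Its counting program was not given in the sources used here, nor was its annotation, and the kit does not mark strand, so overlapping genes cannot be separated. Of the table's columns, 0 belonged to other samples. FPKM moved in whole steps: 19055 genes gave whole reads in every library within 0.01 read, and 28 were at 0 throughout. Interval and depth statements cover counting only. No pair of libraries of the same genotype agreed within sampling noise (chi-square per degree of freedom between 12.2 and 49.3). Pairs across genotypes were not checked. Separate embryos are not stated to come from separate litters, so p-values measure the spread between these libraries.

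Positions, exon GC content and symbols came from GENCODE M21 on GRCm38, the assembly of mm10, in which 18752 identifiers were found and 331 were not. Lengths are those behind the FPKM. Values were analysed as log2(FPKM + 0.5), which understates the change of low genes, with limma 3.58.1 in R 4.3.3 (mean-variance trend, two-sided, Benjamini-Hochberg over all 12907 tested genes, null as covariate). Trends were removed per library with natural splines of 5 degrees of freedom in GC and log2 length. Fits were tested on simulated data. Summaries used Python 3.11.15 and pandas 2.3.3.

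The split, the 36 gene lists and the tests were chosen with earlier results of these data known. Named genes are Pax9; the 12 largest side differences each way among genes with a mean of 2 FPKM or more and no overlap; each list's most abundant and 2 most different members; the 8 largest null changes called only with the side term (1 of them, and 1 list member, are not reported here); and genes of extreme GC content. The largest differences after trend removal were named after their values were seen, as were Myod1, Myog, Pax7 and Hba-x, Hba-a2 and Hbb-bh1.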

Additional observations from a re-analysis of the deposited data

Results flagged for a closer look

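Among the 4 null libraries, 172 values (list sums and named genes) were checked for a library far from the other 3. Of these, 8 were found, where chance flags about 1 in 20. The number found is near that rate, so the flags are given as descriptions only. Stmn2 and Prph are members of the neuron list, so their flags are not separate from that of its sum. Null 3 stood above the others in nerve RNA, with a neuron list sum of 206 FPKM, Stmn2 at 16.7 FPKM and Prph, a neuronal intermediate filament, at 17.2 FPKM. Null 2 stood above the others in C1qb at 14.3 FPKM and C1qa at 11.4 FPKM, complement genes of macrophages, and in the histone gene Hist1h4d at 7.72 FPKM. Null 1 was lowest in Ednrb, an endothelin receptor of neural crest derivatives, at 13.6 FPKM, and highest in the anterior palate list sum at 138 FPKM. Null 1 and null 2 are on the first side and null 3 on the last. The part of these libraries in the side differences of the neuron and macrophage lists was not tested.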

How the results depend on the processing

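The main counts were 2279 and 2120 genes without overlap, higher in the first and last 4, 2841 and 2454 called by limma, 65 higher and 97 lower in null with the side term, and 24 and 26 without it. Counts of the side contrast, limma calls among them, are descriptions, since the split was chosen on these values. The interaction count stayed at 0 under the 22 alternatives that allowed it. With only the GC trend removed, overlap-free counts were 647 and 668, limma counts 178 and 136, and null counts without the side term 45 and 59; with both trends removed, overlap-free counts were 625 and 756, limma counts 168 and 145, and the lower null count without the side term 42. Subsets of 4 libraries raised overlap-free counts by construction: 4010 and 4069 in null, 4390 and 3661 in controls, 4120 and 4052 at title number 44, 4450 and 3908 at 56. Limma counts there were 2 and 0, 0 and 0, 1333 and 1098, and 1355 and 870. The last-side libraries at title number 44 were the 2 Xist-positive ones. At title number 44 null counts with the side were 8 and 13 and without it 0 and 0, and the length slope was 0.0149; at 56 they were 34 lower with it, 8 and 1 without, and 0.00078. The GC slope, 0.238, was 0.194 with no filter on low values. With a mean of 5 FPKM or more, 17 genes were lower without the side term. Alternatives added after seeing the data were voom on recovered reads (138 and 152 null calls with the side), genes of 200 bases or more, trends without the listed genes, and leaving out the 2 Xist-positive libraries (limma 779 and 541, null with the side 27 and 22, 13 lower without it; muscle median 1.06, neuron −0.77).

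With the title number as a replicate block, null counts were 157 and 248 with the side and 14 higher without it. The meaning of the title number is not stated, and correlations of the 56 minus 44 differences ran from −0.126 to 0.379. Whether the block is a pairing was not tested. Leaving out 1 library at a time gave overlap-free counts of 2465 to 3043 and 2303 to 2663, limma counts of 1962 to 2849 and 1605 to 2411 (lowest without heterozygote 2), null counts with the side of 29 to 52 and 28 to 68 and without it of 6 to 31 and 10 to 26, and slopes of 0.223 to 0.255 for GC and 0.00548 to 0.0112 for length. The causes were not tested. The edgeR alternative was not run, as the deposited unit is FPKM; a GC slope is not defined once that trend is removed. Small genes rest on few reads, and 4 libraries a side limit all spreads.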

Other observations

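Single genes of 2 further lists are given by their values. Eno1, a glycolytic enolase, was at 25.7, 26.0, 24.6 and 25.2 FPKM in the first 4 and 17.9, 19.1, 19.3 and 18.1 in the last 4, with little spread within a side. Its difference was 0.44 (standard error 0.04) before and 0.31 after trend removal. In the hypoxia and glycolysis list of 17 genes, 5 were higher in the first 4 and 1 in the last 4 without overlap. In either direction 34.1% of all genes were. After removal 2 and 1 were, against 10.7% of all genes in either direction. The 16 imprinted growth genes had a median of 0.01, with 2 free of overlap before removal, against 34.1% of all genes. Peg10, a retrotransposon-derived imprinted gene, was at 316, 286, 358 and 269 FPKM in the first 4 and 375, 345, 440 and 367 in the last 4. All 4 matched pairs were higher on the last side, by 0.25 to 0.44 on the log2 scale. H19, an imprinted noncoding RNA, ran the other way in all 4 pairs, at 3007, 2572, 2897 and 2602 FPKM against 2481, 2275, 2425 and 2153, and its difference went from 0.25 to 0.07 on removal.

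The 4 tested interferon response genes had a summed level of 25.8 FPKM in wild type 1 and of 12.95 to 15.5 FPKM in the other 7 libraries. Bst2, an interferon-induced membrane protein, was at 12.1 FPKM in wild type 1 and between 3.95 and 5.42 FPKM elsewhere. Cox6a2, the cytochrome oxidase subunit of heart and skeletal muscle, differed by 0.93 before and 0.84 after removal without overlap, on 6 to 42 reads per library.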
